A study of Mus musculus with 8 samples.

Results

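The genes described here are 33 antiviral genes that type I interferon is known to induce, measured in 8 mouse tumours. They were chosen by symbol from a curated list of interferon-stimulated genes, with earlier results of these data known. All 33 were found among the 55450 genes of the table. Shares of these genes and of the companion lists set beside those of all genes are therefore descriptions and not independent support. The tumours grew from MOC1, a carcinogen-derived oral squamous carcinoma line of C57BL/6 origin, placed under the skin of the flank of C57BL/6 mice. All mice received antibody to the checkpoint receptor PD-1 together with antisense oligonucleotides (ASOs, short synthetic strands that lower a chosen transcript) for 32 days. In 5 tumours the ASOs were directed at Smyd3, a lysine methyltransferase, and in 3 they were control ASOs. Of the Smyd3 ASO tumours, 2 were marked as responders (numbered 1 and 3), 1 carried the number 2 and no response mark, and 2 were marked as non-responders. The non-responders had no replicate number and are called non-responder 1 and non-responder 2 in the order in which they were listed. The control tumours carried no response mark. RNA came from whole frozen tumour, so each value mixes carcinoma, immune and stromal cells, and fewer cells of a type cannot be told apart from less RNA per cell. The labels name each tumour separately without describing the animals further, so the p-values measure the spread between these 8 samples.

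Type I interferons (the interferon alpha family and interferon beta) bind the receptor made of Ifnar1 and Ifnar2. The kinases Jak1 and Tyk2 then act on Stat2, which joins Irf9 in a complex called ISGF3. ISGF3 binds the interferon-stimulated response element (ISRE) near the start of its target genes. The products of these targets sense foreign nucleic acid, degrade or bind viral RNA, block entry and budding of virus, and carry the signal further. Interferon gamma, made mainly by T cells and natural killer cells, uses another receptor and acts mainly through a different element (GAS), and many genes respond to both interferons.

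Upstream sequences of 5 of the genes are shown because they carry the element that ISGF3 binds and represent a ubiquitin-like modifier, 3 neighbouring Ifit genes and a membrane protein. Each is the 200 bases before the transcription start, from RefSeq on GRCm38.p6, written 5′ to 3′ on the strand of the gene, with capitals for the ISRE core (GAAA, any 2 bases, GAAA) or its reverse complement. Isg15 lies on the minus strand at chr4:156200819-156201018, Ifit1 on the plus strand at chr19:34640689-34640888, Ifit3 on the plus strand at chr19:34583329-34583528, Ifit3b on the plus strand at chr19:34607757-34607956 and Bst2 on the minus strand at chr8:71537473-71537672.
Isg15: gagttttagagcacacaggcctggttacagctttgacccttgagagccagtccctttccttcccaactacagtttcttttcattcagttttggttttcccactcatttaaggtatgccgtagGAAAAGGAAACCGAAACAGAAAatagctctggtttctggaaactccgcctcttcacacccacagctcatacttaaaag
Ifit1: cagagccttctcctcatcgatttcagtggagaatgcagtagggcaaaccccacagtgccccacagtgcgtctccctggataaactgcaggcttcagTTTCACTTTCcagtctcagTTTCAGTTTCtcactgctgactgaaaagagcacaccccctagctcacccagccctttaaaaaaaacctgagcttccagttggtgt
Ifit3: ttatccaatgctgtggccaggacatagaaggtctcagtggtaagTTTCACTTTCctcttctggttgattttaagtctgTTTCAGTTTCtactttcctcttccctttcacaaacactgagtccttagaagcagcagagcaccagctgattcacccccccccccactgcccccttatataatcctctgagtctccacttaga
Ifit3b: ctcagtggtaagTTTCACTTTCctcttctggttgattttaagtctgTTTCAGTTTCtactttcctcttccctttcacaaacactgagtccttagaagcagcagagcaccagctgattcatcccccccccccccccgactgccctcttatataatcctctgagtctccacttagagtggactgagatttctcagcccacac
Bst2: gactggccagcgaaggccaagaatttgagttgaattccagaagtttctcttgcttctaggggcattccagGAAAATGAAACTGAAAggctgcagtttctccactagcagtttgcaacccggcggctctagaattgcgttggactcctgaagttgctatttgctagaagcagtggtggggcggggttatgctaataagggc
In Isg15 the capitals are 3 overlapping matches between bases -78 and -57 relative to the start, and in Bst2 they are 2 overlapping matches between -130 and -115. Ifit1, Ifit3 and Ifit3b each hold the same pair of separate matches, TTTCACTTTC and TTTCAGTTTC, with the first base of the pair at -104, -156 and -188. RefSeq windows running 250 bases before to 50 bases after the start were at hand for 24 of the 33 genes. A gene was counted if any of its windows held a match, and Trim30a had more than 1 window. The ISRE core was present on either strand in 13 of these 24 genes (54.2%), and in 1079 of the 27025 genes with such a window (3.99%). The 13 genes were Bst2, Ddx58, Ifih1, Ifit1, Ifit3, Ifit3b, Ifitm3, Isg15, Oas1a, Oas3, Rsad2, Stat2 and Trim30a. The GAS letters TTCNNNGAA, which read the same on both strands, were present in 6 of the 24 genes (25.0%) and in 2582 of 27025 genes (9.55%). In Bst2 the GAS letters at -136 to -128 overlap the first ISRE match. These matches describe letters in a window and do not show binding.

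Several of the 33 genes are neighbours (GENCODE M21, mm10). The 4 Ifit genes span 99.3 kb at chr19:34550694-34650009, and Oas1a, Oas2 and Oas3 span 177 kb at chr5:120730333-120907521. Oasl1 and Oasl2 lie within 41.0 kb at chr5:114896936-114937915. Mx1 and Mx2 lie within 114 kb on chromosome 16, and Rsad2 and Cmpk2 are 12.8 kb apart on chromosome 12. The authors' counting can split reads that match more than 1 gene. Ifit1, Ifit3, Ifit3b, Oas1a and Trim30a had estimated counts that were not whole numbers in all 8 libraries, and Ifitm3 and Herc6 in 7, so the separate values of such genes are less certain. Exons of Herc6, Rtp4, Parp14 and Irf9 overlap another gene on the same strand. Exons of Ifi35, Oasl1, Dhx58, Usp18 and Irf7 overlap a gene on the opposite strand, and the strand setting of the counting is not given in the sources used here.

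Library totals ran between 22103853 and 27258700 estimated counts. Levels are given as counts-per-million (CPM) after scaling libraries by the trimmed mean of M values (TMM). All 33 genes passed the filter on low counts and are among the 16911 genes tested. Smyd3 itself averaged 6.36 ± 2.40 CPM in Smyd3 ASO tumours and 11.1 ± 0.719 CPM in control tumours (SD, n = 5 and 3), a difference of -4.72 CPM (exact two-sided permutation test over 56 splits, p = 0.0357). Relative to the control mean, Smyd3 stood at 78.4% in responder 1, 39.6% in responder 3, 41.3% in the unmarked tumour, 83.6% in non-responder 1 and 44.0% in non-responder 2. The reduction was therefore uneven, with responder 1 and non-responder 1 nearest to the controls.

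In Smyd3 ASO tumours the antiviral genes mostly lay above their level in control tumours, but none passed the test after adjustment over all genes. The fold change was above 0 on the log2 scale for 32 of 33 genes and below 0 for Isg20 alone, with a median of 1.16 (lowest -0.51, highest 1.72), against a median of 0.013 over all 16911 genes. By edgeR's quasi-likelihood test, 0 of 33 were called at a Benjamini-Hochberg adjusted p under 0.05, as were 0% of all genes, and the lowest adjusted p among the 33 was 0.0962. At an unadjusted p under 0.05, 27 of 33 were higher (81.8%) and 0 were lower, while 8.55% of all genes were higher and 7.00% lower. DESeq2, another count model, called 21 of the 33 as higher, against 3.97% of the genes it tested, and limma voom called 0. For 9 of the 33 genes (27.3%) every Smyd3 ASO tumour lay above every control tumour, which held for 5.45% of all genes. The other 4 Smyd3 ASO tumours, without non-responder 1, all lay above every control for 29 of 33 genes (9.08% of all genes). With non-responder 1 left out, edgeR called 18 of the 33 as higher, against 1.11% of all genes. Non-responder 1 was the lowest Smyd3 ASO tumour for all 33 genes, so leaving it out favours these counts. With any other single library left out, edgeR called 0 of the 33. In the 6 numbered tumours alone, which include neither non-responder, it called 14, against 1.42% of all genes.

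**Figure D1:**
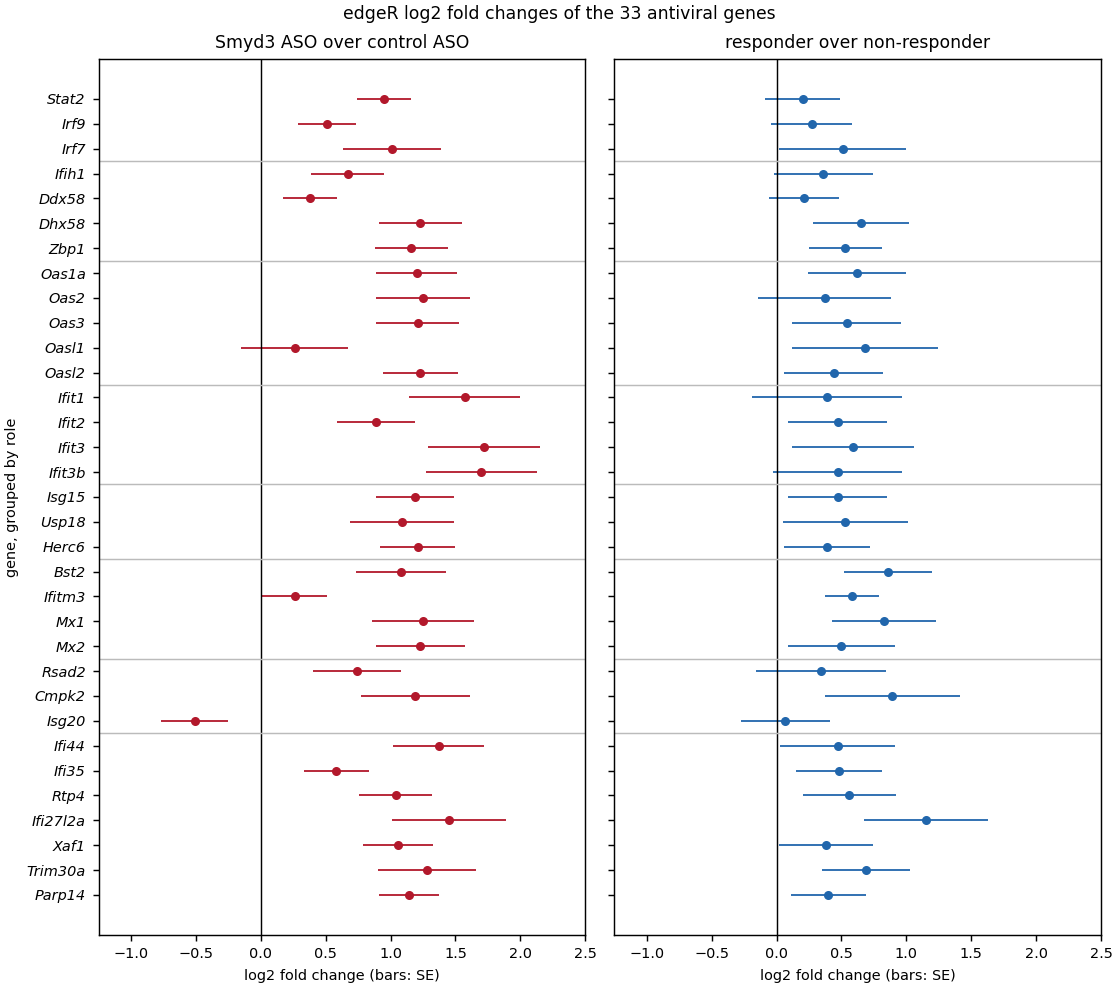
Log2 fold change of each of the 33 genes in Smyd3 ASO against control ASO tumours (left; n = 5 and 3) and in responders against non-responders (right; n = 2 each), from edgeR with standard errors as bars, grouped by role. On the left all estimates lie above 0 except that of Isg20, at -0.51, and the highest are Ifit3 at 1.72 and Ifit3b at 1.70, while on the right they run between 0.068 and 1.15.

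Among the transcription factors, Stat2, the ISGF3 subunit specific to type I and type III signalling, had 158 and 234 CPM in responders 1 and 3, 208 CPM in the unmarked tumour and 129 and 212 CPM in non-responders 1 and 2, against 93.6, 84.9 and 115 CPM in the controls. All 5 Smyd3 ASO tumours lay above all 3 controls, with non-responder 1 closest to them. The log2 fold change of Stat2 was 0.95 (SE 0.21, edgeR adjusted p = 0.0999). Irf9, its DNA-binding partner, averaged 110.2 ± 20.5 CPM in Smyd3 ASO tumours and 77.4 ± 21.5 CPM in control tumours (log2 fold change 0.51, adjusted p = 0.307). Irf7, which drives interferon alpha transcription in a second wave, averaged 213 ± 78.7 CPM in Smyd3 ASO tumours and 106 ± 35.1 CPM in controls (log2 fold change 1.01, adjusted p = 0.258). Both overlapped the controls through non-responder 1, at 75.0 CPM for Irf9 and 92.9 CPM for Irf7.

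The nucleic acid sensors differed among themselves. Zbp1, which recognises Z-form nucleic acid, had 146 and 191 CPM in responders 1 and 3, 222 CPM in the unmarked tumour and 82.7 and 151 CPM in the non-responders, against 67.8, 65.9 and 79.1 CPM in the controls. The groups did not overlap, although non-responder 1 stood only just above the highest control (log2 fold change 1.16, SE 0.28, edgeR adjusted p = 0.122). Dhx58, which encodes LGP2, also stood above all controls in every Smyd3 ASO tumour, averaging 41.0 ± 15.1 CPM against 17.4 ± 2.42 CPM in controls (log2 fold change 1.23, adjusted p = 0.135). Its relatives differed less: Ifih1 (MDA5) had a log2 fold change of 0.67 and Ddx58 (RIG-I) of 0.38, with overlapping groups and adjusted p of 0.299 and 0.424.

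The OAS proteins sense double-stranded RNA, and the enzymes among them make 2'-5' oligoadenylates that switch on the nuclease RNase L. Oasl2 was the most abundant of this family, with 303 and 392 CPM in responders 1 and 3, 375 CPM in the unmarked tumour and 164 and 349 CPM in the non-responders, against 147, 96.9 and 161 CPM in the controls. Non-responder 1 and control 3 almost met, and the other 4 Smyd3 ASO tumours stood well clear (log2 fold change 1.23, SE 0.29, edgeR adjusted p = 0.116). Oas1a, Oas2 and Oas3 had log2 fold changes of 1.20, 1.25 and 1.21. Oasl1, which in mouse restrains translation of Irf7, behaved differently, with 13.6 and 31.3 CPM in responders 1 and 3, 15.8 CPM in the unmarked tumour and 9.72 and 18.3 CPM in the non-responders, against 21.4, 8.16 and 14.8 CPM in the controls. The Oasl1 groups overlapped widely (log2 fold change 0.26, SE 0.41, adjusted p = 0.804), and its estimate was -0.052 without responder 3.

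The Ifit family, which encodes tetratricopeptide proteins that bind viral RNA, held the highest fold changes of the 33 genes. Ifit3 had 120.1 and 169 CPM in responders 1 and 3, 229 CPM in the unmarked tumour and 51.6 and 140.0 CPM in the non-responders, against 45.6, 30.7 and 52.8 CPM in the controls. Non-responder 1 lay inside the control range and the other 4 Smyd3 ASO tumours lay above it. The mean was 142 ± 65.1 CPM in Smyd3 ASO tumours and 43.0 ± 11.3 CPM in controls, a ratio of 3.30 (log2 fold change 1.72, SE 0.43, edgeR adjusted p = 0.132). Its near copy Ifit3b showed the same order of tumours at a lower level, with 30.5, 46.9, 58.2, 16.2 and 39.8 CPM in responder 1, responder 3, the unmarked tumour, non-responder 1 and non-responder 2, against 11.8, 7.22 and 16.4 CPM in the controls (log2 fold change 1.70, SE 0.43, adjusted p = 0.130). Ifit1 averaged 107 ± 42.6 CPM in Smyd3 ASO tumours and 36.2 ± 15.1 CPM in controls, with no overlap (log2 fold change 1.57, adjusted p = 0.149). Ifit2 had the lowest estimate of the 4, at 0.89, with non-responder 1 inside the control range.

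The ISG15 system consists here of the ubiquitin-like protein Isg15, the mouse ligase Herc6 that attaches it, and the protease Usp18 that removes it and dampens the type I receptor. Isg15 had 97.3 and 146 CPM in responders 1 and 3, 132 CPM in the unmarked tumour and 60.8 and 115 CPM in the non-responders, against 56.0, 32.5 and 55.9 CPM in the controls. Herc6 had 69.6, 89.6, 110.4, 40.8 and 80.6 CPM in the same order of tumours, against 34.9, 27.4 and 39.2 CPM in the controls. In both genes all Smyd3 ASO tumours stood above all controls, non-responder 1 by a narrow margin. The log2 fold changes were 1.19 for Isg15 (SE 0.30, edgeR adjusted p = 0.131) and 1.21 for Herc6 (SE 0.29, adjusted p = 0.119). Usp18 averaged 54.7 ± 21.5 CPM in Smyd3 ASO tumours and 25.8 ± 10.1 CPM in controls, with non-responder 1, at 24.2 CPM, inside the control range.

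Among membrane and GTPase effectors, Bst2 (tetherin, which holds budding virus at the cell surface) averaged 97.6 ± 38.0 CPM in Smyd3 ASO tumours and 46.1 ± 6.26 CPM in controls (log2 fold change 1.08, edgeR adjusted p = 0.208). The dynamin-like GTPases Mx1 and Mx2 were low, at 14.3 ± 6.09 and 6.05 ± 2.09 CPM in Smyd3 ASO tumours and 6.03 ± 0.314 and 2.57 ± 0.323 CPM in controls. C57BL/6 mice carry a disrupted Mx1 gene that yields no working protein, so the Mx1 values are of a transcript only. Ifitm3, which blocks fusion of virus with endosomes, had 1372 and 1418 CPM in responders 1 and 3, 1803 CPM in the unmarked tumour and 755 and 1115 CPM in the non-responders, against 1100.0, 972 and 1172 CPM in the controls. For Ifitm3 the non-responders lay within or below the control range while the other 3 Smyd3 ASO tumours lay above them, and the difference between arms was small (log2 fold change 0.26, SE 0.25, adjusted p = 0.667).

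The 3 genes of nucleotide and RNA metabolism varied most in direction. Cmpk2, a mitochondrial nucleotide kinase, and its neighbour Rsad2 (viperin, which makes a chain-terminating nucleotide) had log2 fold changes of 1.19 and 0.74. Isg20, an exonuclease acting on single-stranded RNA, had 20.1 and 21.7 CPM in responders 1 and 3, 31.1 CPM in the unmarked tumour and 17.5 and 22.3 CPM in the non-responders, against 21.3, 45.5 and 29.3 CPM in the controls. The Isg20 groups overlapped, and control 2 was the highest of the 8 tumours (log2 fold change -0.51, SE 0.26, edgeR adjusted p = 0.385).

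Of the remaining 7 genes, Parp14 had the lowest adjusted p of all 33. Parp14, a mono-ADP-ribosyltransferase, had 227 and 285 CPM in responders 1 and 3, 280.2 CPM in the unmarked tumour and 144 and 244 CPM in the non-responders, against 104, 86.9 and 129.8 CPM in the controls. All Smyd3 ASO tumours lay above all controls (log2 fold change 1.14, SE 0.23, edgeR adjusted p = 0.0962). Ifi44 had 69.0, 85.4, 98.4, 30.4 and 81.2 CPM in responder 1, responder 3, the unmarked tumour, non-responder 1 and non-responder 2, against 26.7, 22.3 and 35.7 CPM in the controls. Xaf1, an XIAP-associated factor, had 95.3, 113, 118, 54.2 and 106 CPM in the same tumours, against 48.8, 33.1 and 58.1 CPM in the controls. In Ifi44 and Xaf1 non-responder 1 lay inside the control range and the other 4 above it, with log2 fold changes of 1.37 (adjusted p = 0.135) and 1.06 (adjusted p = 0.135). Trim30a, which in mouse dampens Toll-like receptor signalling, Ifi27l2a, Rtp4, of a family of receptor chaperones, and Ifi35, a partner of Nmi, had log2 fold changes of 1.28, 1.45, 1.04 and 0.58.

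**Figure D2:**
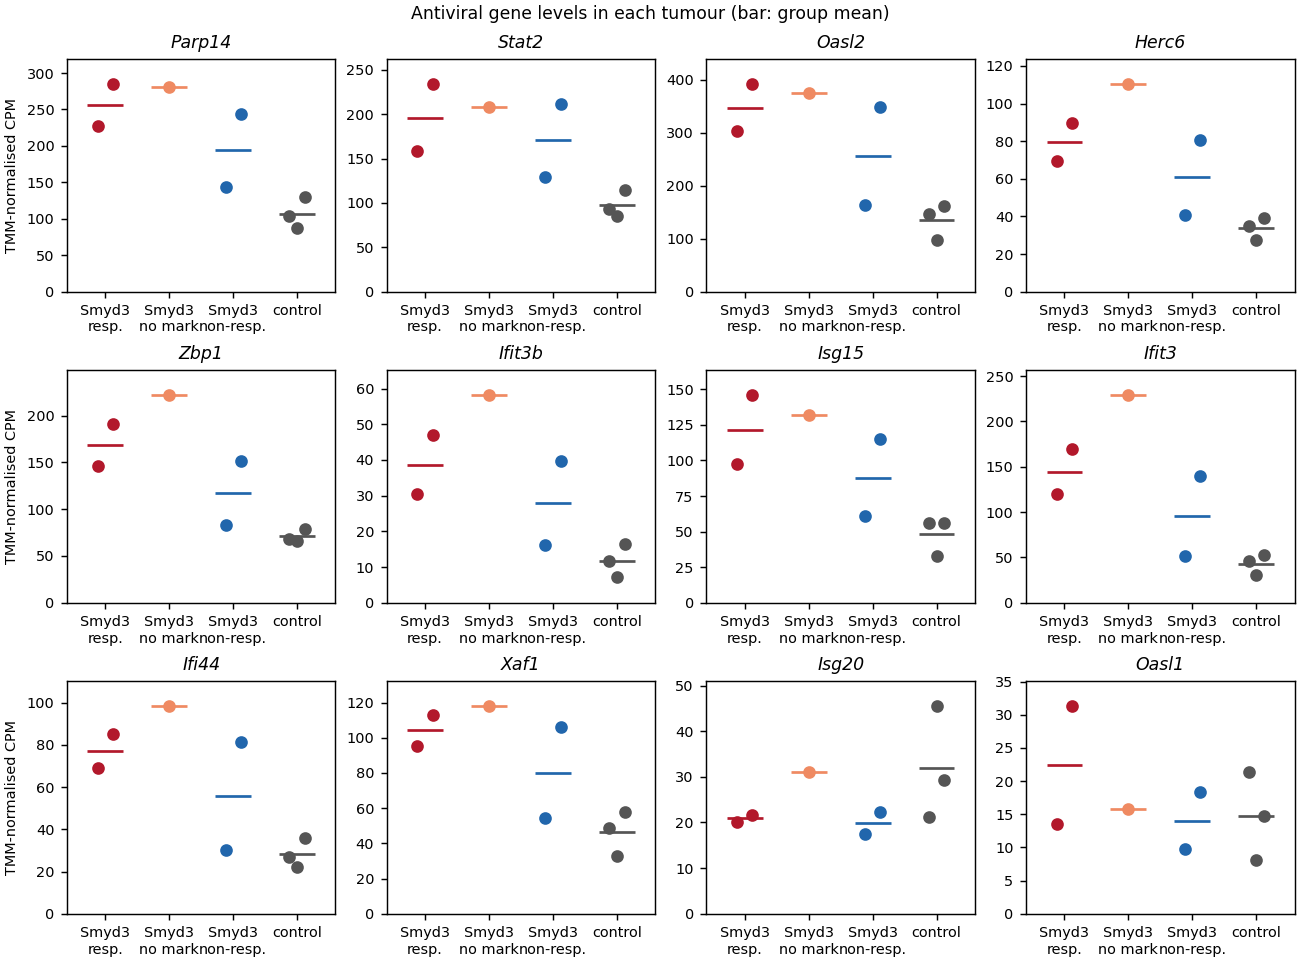
TMM-normalised CPM in each tumour for the 10 genes with the lowest p in Smyd3 ASO against control tumours, and for Isg20 and Oasl1; each point is a tumour, bars are group means, and each panel's axis starts at 0. Non-responder 1 is the lowest Smyd3 ASO point in every panel, while Isg20 shows its highest value in a control at 45.5 CPM.

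Per kilobase of exon, which allows genes to be compared, Ifitm3 was by far the most abundant, at 1907 CPM per kb in Smyd3 ASO tumours and 1595 in controls. Isg15 followed at 146 CPM per kb in Smyd3 ASO tumours and 63.7 in controls, and Bst2 at 108 and 51.1. Mx2 was the lowest of the 33, at 1.67 CPM per kb in Smyd3 ASO tumours and 0.712 in controls. The coefficient of variation was higher in the Smyd3 ASO arm for 24 of 33 genes, with a median of 33.2% in Smyd3 ASO tumours and 26.2% in controls. The Smyd3 ASO arm mixes response marks, and the share over all genes was not computed, so this count is not read as a trait of the 33.

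Across the 33 genes, non-responder 1 stood apart from the rest of its arm. The median log2 difference from the control mean over the 33 genes was 1.06 in responder 1, 1.45 in responder 3, 1.49 in the unmarked tumour, 0.14 in non-responder 1 and 1.19 in non-responder 2. Non-responder 1 had the lowest level of the 5 Smyd3 ASO tumours in 33 of 33 genes. It lay above every control for 9 genes, within the control range for 21 and below it for Mx1, Ifitm3 and Isg20, whereas 30.5% of all genes lay above every control and 40.1% within the control range in this tumour. Non-responder 2 lay above every control for 30 of the 33 genes, against 25.5% of all genes, and above responder 1 for 26. Responder 1 lay above every control for 30 (27.6% of all genes), responder 3 for 32 (33.2%) and the unmarked tumour for 31 (25.2%). The level in non-responder 2 was a median of 2.01 times that in non-responder 1, between 1.28 times for Isg20 and 2.71 times for Ifit3. The highest of the 8 tumours was responder 3 for 17 genes and the unmarked tumour for 15. Among controls, control 2 was the lowest for 26 genes, and its median log2 difference from the control mean was -0.34, against 0.042 in control 1 and 0.29 in control 3.

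**Figure D3:**
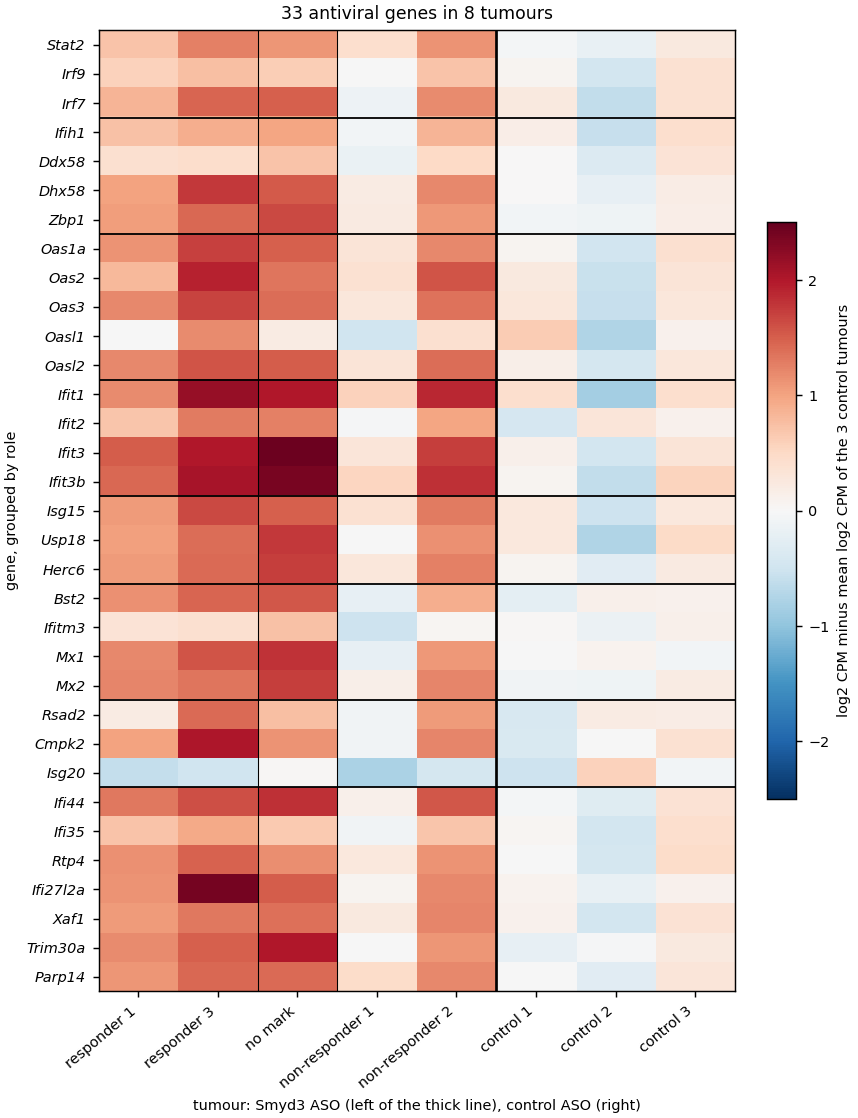
Log2 difference of each gene in each tumour from the mean of the 3 controls, with Smyd3 ASO tumours on the left and controls on the right. Non-responder 1, with a median of 0.14, resembles the control columns, while the other 4 Smyd3 ASO tumours have medians between 1.06 and 1.49.

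**Figure D4:**
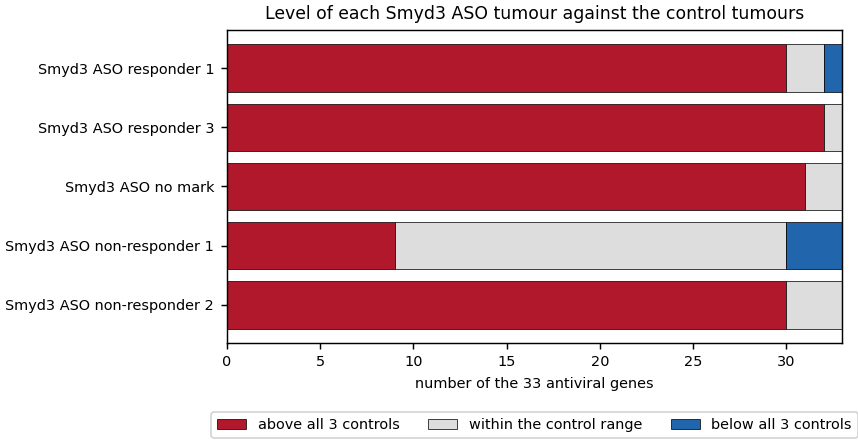
For each Smyd3 ASO tumour, the number of the 33 genes above all 3 controls (red), within the control range (grey) and below all 3 controls (blue). Non-responder 1 has 9 genes above and 21 within the range, while the other 4 tumours have between 30 and 32 above.

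Responders stood above non-responders in the group means of all 33 genes, but the responders' margin was small beside the gap between the non-responders themselves. The median log2 fold change was 0.48 (lowest 0.068 for Isg20, highest 1.15 for Ifi27l2a), against 0.013 over all genes. edgeR called 0 of 33 genes, as it did 0% of all genes, 3 were higher at an unadjusted p under 0.05 against 4.74% of all genes, and DESeq2 called 0 against 0.998% of the genes it tested. Both responders lay above both non-responders for 7 of 33 genes (21.2%), close to the 20.3% of all genes for which this held. The lowest p values belonged to Ifitm3 (log2 fold change 0.58, SE 0.21, edgeR adjusted p = 0.552), Bst2 (0.86, SE 0.34, adjusted p = 0.572), Ifi27l2a (1.15, SE 0.48, adjusted p = 0.585), Mx1 (0.83, SE 0.40, adjusted p = 0.611) and Trim30a (0.69, SE 0.34, adjusted p = 0.620).

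Bst2 had 101 and 126 CPM in responders and 39.7 and 85.5 CPM in non-responders, and the unmarked tumour stood above all of them at 135 CPM. Mx1 had 14.0 and 18.2 CPM in responders and 5.21 and 12.9 CPM in non-responders. Trim30a had 98.0 and 122 CPM in responders and 43.3 and 93.3 CPM in non-responders. In each of these the responders stood above both non-responders, with non-responder 2 nearer to them than non-responder 1. Ifi27l2a had 29.7 and 71.9 CPM in responders and 14.3 and 31.6 CPM in non-responders, so responder 1 lay below non-responder 2 and the mean was set by responder 3. Without non-responder 1 the median over the 33 genes was 0.061, and without non-responder 2 it was 1.08.

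Set against the same 3 controls, the responders and the non-responders gave values that share those controls and so are given side by side without a test between them. In responders against controls, 32 of 33 estimates were above 0 on the log2 scale and their median was 1.27, and edgeR called 0 of them, against 1.38% of all genes called as higher and 1.66% in either direction. At an unadjusted p under 0.05, 26 were higher against 9.62% of all genes, and DESeq2 called 22 against 4.46%. Both responders lay above all controls for 30 of 33 genes, against 18.8% of all genes. In non-responders against controls, 30 of 33 lay above 0 with a median of 0.72, edgeR called 0 (0% of all genes), 11 were higher at an unadjusted p under 0.05 against 5.10% of all genes, and DESeq2 called 0 against 1.43%. Both non-responders lay above all controls for 9 genes, against 12.2% of all genes. The median was 0.11 without non-responder 2 and 1.13 without non-responder 1.

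The lowest adjusted p in responders against controls were those of Zbp1 (log2 fold change 1.25, SE 0.25, edgeR adjusted p = 0.0699) and Parp14 (1.26, SE 0.26, adjusted p = 0.0733), and against controls the non-responders gave 0.72 for Zbp1 and 0.86 for Parp14. Ifit3 gave 1.75 in responders and 1.15 in non-responders. Ifi27l2a gave 1.89 in responders and 0.75 in non-responders. Ifitm3 gave 0.37 in responders and -0.21 in non-responders, and Isg20 gave -0.62 and -0.68.

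The genes that make and carry the interferon signal were examined beside the 33. Transcripts of the ligands were scarce: the 13 numbered interferon alpha genes (Ifna1 and its relatives) had 0 counts in every library, and a count of 0 over the 8 libraries allows up to 3 counts, or 0.0155 CPM (counting error only). Ifnab, annotated as interferon alpha B, had 6 counts in Smyd3 ASO tumours and 1 in controls. Ifnb1 had 3 counts, all in responder 3, and Ifnz had 4 counts in Smyd3 ASO tumours and 0 in controls. Ifne had 10 counts in Smyd3 ASO tumours and 15 in controls. The interferon gamma gene Ifng was the only ligand gene of the 21 to pass the filter, at 2.19 and 3.55 CPM in responders 1 and 3, 2.10 CPM in the unmarked tumour and 0.967 and 1.70 CPM in the non-responders, against 0.624, 0.892 and 0.463 CPM in the controls. All Smyd3 ASO tumours lay above all controls for Ifng (log2 fold change 1.67, SE 0.46, edgeR adjusted p = 0.149). The receptor and signalling genes had a median log2 fold change of 0.099, with 10 of 15 above 0. Among them Socs1, an inhibitor of the receptor kinases, had a log2 fold change of 0.94 (SE 0.21, edgeR adjusted p = 0.103). The sensors and adaptors upstream of interferon had a median of 0.27 with 13 of 15 above 0, and 2 of 15 (13.3%) were higher at an unadjusted p under 0.05, near the 8.55% of all genes.

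Further interferon-stimulated genes outside the 33 lay on the same side. Of 54 other type I genes tested, 52 had estimates above 0 in Smyd3 ASO tumours (median 0.70 on the log2 scale), 31 were higher at an unadjusted p under 0.05 (57.4%, against 8.55% of all genes), and edgeR called 0. Among them Parp11 had a log2 fold change of 0.67 (SE 0.10, edgeR adjusted p = 0.0656) and Tap1, the peptide transporter of antigen presentation, 0.97 (SE 0.20, adjusted p = 0.0939). Of 24 genes chosen as biased towards interferon gamma, 23 lay above 0 with a median of 1.46, and edgeR called 0. Of these 24, 22 were higher at an unadjusted p under 0.05 (91.7%, against 8.55% of all genes) and 14 separated the arms (58.3%, against 5.45%). Which interferon acted on them was not tested. Igtp, an interferon-inducible GTPase, had 475 and 712 CPM in responders 1 and 3, 583 CPM in the unmarked tumour and 288 and 482 CPM in the non-responders, against 125, 142 and 142 CPM in the controls. Non-responder 1 was again the lowest of its arm for Igtp, yet stood well above every control (log2 fold change 1.90, SE 0.27, adjusted p = 0.0656). In responders against controls edgeR called 11 of the 24 and 3 of the 54, all higher, against 1.38% of all genes. Over all genes that comparison had 280 calls in either direction with all controls, 0 without control 1 and 6 without control 3, so these calls were lost without control 1. No test compared these lists with the 33 genes.

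Markers of other cells varied between the arms, but edgeR called 0 of them, as it did 0% of all genes. By log2 fold change in Smyd3 ASO tumours, 12 of 12 skeletal muscle and 10 of 10 T cell markers lay above 0. So did 5 of 5 tested B cell, 6 of 6 natural killer and 5 of 5 tested neutrophil markers, and 8765 of all 16911 genes. Below 0 lay 6 of 10 fibroblast, 8 of 10 keratinocyte and 7 of 8 endothelium markers. No marker was at 0 counts in every library. At an unadjusted p under 0.05, 12 skeletal muscle, 8 T cell, 1 B cell, 2 natural killer and 0 neutrophil markers were higher, against 8.55% of all genes. On the lower side were 5 fibroblast, 1 keratinocyte and 1 endothelium markers, against 7.00% of all genes. Summed skeletal muscle markers were 2064 and 10284 CPM in responders 1 and 3, 4615 CPM in the unmarked tumour and 597 and 889 CPM in the non-responders, against 32.4 to 90.4 CPM in controls. Summed T cell markers were 84.0, 181, 70.6, 37.1 and 72.0 CPM in responder 1, responder 3, the unmarked tumour, non-responder 1 and non-responder 2, against 25.1, 52.9 and 26.3 CPM in the controls, so 4 Smyd3 ASO tumours lay above every control and non-responder 1 within the control range. Summed B cell markers were 284 and 496 CPM in responders 1 and 3, 17.7 CPM in the unmarked tumour and 27.3 and 224 CPM in the non-responders, against 9.15, 11.9 and 24.5 CPM in the controls. The unmarked tumour, high in the antiviral genes, lay within the control range for B cell markers. Summed natural killer markers ran between 10.6 and 25.6 CPM in Smyd3 ASO tumours and between 4.38 and 9.50 CPM in controls. Summed fibroblast markers were lower in the Smyd3 ASO arm, at 4891 to 6395 CPM against 7398 to 12972 CPM in controls, with control 2 the highest. Collagen transcripts made up most of this sum, with Col1a1, Col1a2 and Col3a1 at 4131, 3828 and 3416 CPM in control 2. By log2 fold change 4 of the 10 fibroblast markers lay above 0, among them Dcn at 0.26 and Fap at 0.17. Summed keratinocyte and carcinoma markers were highest in non-responder 1, at 46219 CPM. The sums ran between 21455 and 31999.7 CPM in the other Smyd3 ASO tumours and between 31371 and 37368 CPM in controls. Members of this list differed in direction: Epcam (189 CPM) and Cdh1 (381 CPM) were at their lowest of the 8 tumours in non-responder 1. Summed macrophage markers overlapped, at 958 to 2528 CPM in Smyd3 ASO tumours and 954 to 1682 CPM in controls. Of plasmacytoid dendritic cells, which are strong interferon alpha producers, 7 of 9 tested markers lay above 0. The highest log2 fold change among them was that of Cox6a2, at 4.90. Cox6a2 ranked the 5 Smyd3 ASO tumours in the same order as the summed skeletal muscle markers, from 16.1 CPM in responder 3 to 1.52 CPM in non-responder 1. Every Smyd3 ASO tumour lay above every control for 2 of the 9 (22.2%, against 5.45% of all genes), Cox6a2 and Ccr9. Ccr9 was low, at 0.184 to 1.05 CPM against 0.0892 to 0.166 CPM in controls (log2 fold change 2.12, SE 0.65, edgeR adjusted p = 0.190). The summed plasmacytoid dendritic cell markers overlapped, at 627 to 1000.3 CPM in Smyd3 ASO tumours and 483 to 868 CPM in controls. Other genes of the list made up most of that sum, so it says little about Siglech, Ccr9 or Cox6a2. The defining marker Siglech was low throughout, between 0.466 and 1.52 CPM in Smyd3 ASO tumours and between 0.249 and 0.758 CPM in controls. The part of these cells in the levels of the 33 genes was not tested.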

How the data were processed

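The values deposited by the authors are expected counts from RSEM, estimates of reads per gene that need not be whole, for 8 libraries of polyadenylated RNA made with a stranded kit, per the labels' protocols. Per the submitters' processing notes, the build was mm10 and the tools were STAR 2.7.0f, RSEM 1.3.0, cutadapt 1.18 and bcl2fastq 2.17. Symbols and IDs are those of the table, and all 55450 IDs matched GENCODE M21. The 33 genes and the companion and marker lists were chosen with earlier results of these data known.

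Counts were rounded to whole numbers. Genes with at least 0.424 CPM (10 reads in the median library) in 2 or more libraries and a total of at least 15 were tested, 16911 genes holding 99.93% of counts. Libraries were scaled by TMM (factors 0.964 to 1.04). Robust quasi-likelihood tests were run in edgeR 4.0.16 (R 4.3.3) with all 8 libraries, by arm or, for response, in a model of 4 groups, two-sided, with Benjamini-Hochberg adjustment over all genes tested. The scripts were tested on simulated data. Alternatives were DESeq2 1.42.0, limma 3.58.1 (voom), relative log expression scaling, no filter, other sample sets, the replicate block and each library left out. Genes given in every tumour were those with the 10 lowest p between arms, the 5 lowest between responders and non-responders, those below 0 and those with the smallest differences. At most 4 genes per companion list were named, by lowest p. One gene of the companion lists is not reported here.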

Additional observations from a re-analysis of the deposited data

Results flagged for a closer look

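Among 34 sets of values in the 5 Smyd3 ASO tumours that were looked at for a tumour standing apart from the others (Dixon's ratio above 0.71), 1 stood out. It was Irf9, where non-responder 1 had 75.0 CPM, against 112 and 126 CPM in responders 1 and 3, 115 CPM in the unmarked tumour and 123 CPM in non-responder 2. The controls had 79.1, 55.1 and 97.9 CPM, so non-responder 1 lay within their range. Chance gives such a value in about 1 in 20 groups.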

How the results depend on the processing

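The cause of none of the following shifts was tested. Between arms, edgeR called 0 genes in all and 0 of the 33. DESeq2 called 1053 genes and 21 of the 33, no filter on low counts gave 52 genes, the mean of responders and non-responders gave 25, and the 6 numbered tumours alone gave 286 genes and 14 of the 33. The numbers did not pair the tumours (correlations of same-numbered deviations -0.034, 0 and 0.076), and adding the replicate block to those 6 tumours, without either non-responder, gave 245 genes and 12 of the 33. Leaving out 1 library gave 0 to 258 genes and 0 to 18 of the 33, with 258 and 18 without non-responder 1 and 5 genes without control 1. In responders against non-responders (0 genes), DESeq2 called 225, no filter 7, and leaving out 1 library 0 to 21, with 21 without responder 1, and the median over the 33 ran between 0.061 and 1.08. In responders against controls (280 genes, 0 of the 33), DESeq2 called 1153 genes and 22 of the 33, voom 135 genes, no filter 499 genes and 3 of the 33, and the 5 libraries compared alone 180 genes and 3 of the 33. Leaving out 1 library there gave 0 to 287 genes (0 without control 1, 107 without control 2, 6 without control 3, 33 without responder 3, 169 and 134 without non-responders 1 and 2) and 0 to 4 of the 33. In non-responders against controls (0 genes), DESeq2 called 339 and no filter 32, and the median ran between 0.11 and 1.13.

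Log2 fold changes that turned sign when 1 library was left out had these ranges. Between arms Oasl1 ran between -0.052 and 0.63, and in responders against controls between -0.13 and 1.08. In responders against non-responders, mostly low without non-responder 1 or responder 3 and high without non-responder 2, Stat2 ran between -0.11 and 0.59, Irf9 between -0.043 and 0.66, Irf7 between -0.0073 and 1.30, Ifih1 between -0.030 and 0.88, Ddx58 between -0.080 and 0.57, Oas2 between -0.29 and 1.08, Oasl1 between -0.038 and 1.20, and Oasl2 between -0.0088 and 1.08. Likewise Ifit1 ran between -0.19 and 1.18, Ifit3b between -0.042 and 1.25, Herc6 between -0.018 and 0.96, Rsad2 between -0.39 and 1.02, Isg20 between -0.098 and 0.25, Ifi44 between -0.074 and 1.33, and Xaf1 between -0.032 and 0.93. In non-responders against controls, low without non-responder 2 and high without non-responder 1, Irf9 ran between -0.048 and 0.66, Irf7 between -0.19 and 1.13, Ifih1 between -0.13 and 0.79, Ddx58 between -0.19 and 0.47, Oasl1 between -0.61 and 0.30, Ifit2 between -0.060 and 0.95, and Usp18 between -0.094 and 1.06. There Bst2 ran between -0.22 and 0.89, Ifitm3 between -0.52 and 0.044, Mx1 between -0.21 and 1.10, Rsad2 between -0.12 and 1.04, Cmpk2 between -0.13 and 1.21, Ifi35 between -0.14 and 0.64, and Trim30a between -0.015 and 1.10.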
